A study of Mus musculus with 18 samples.

Results

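Oxidative phosphorylation genes were compared in liver RNA of female mice aged 6 to 8 weeks in a pair of models. The members were all genes whose symbol in the platform annotation begins with Nduf, Uqcr, Cox4i, Cox5, Cox6, Cox7, Cox8 or Atp5, together with Sdha, Sdhb, Sdhc and Sdhd, which gave 87 of the 17097 genes measured. Of these, 40 were placed in complex I, 4 in complex II, 7 in complex III, 19 in complex IV and 17 in complex V. Ndufa4 and Ndufa4l2 were counted with complex IV, where the protein of Ndufa4 resides, although their symbols carry the complex I prefix. Complex I also took in 7 assembly factors, which build the complex without remaining in it, and the pseudogene Ndufs5-ps, whose probe set may also bind the transcript of its parent gene.

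The transgenic model set 5 NPC1L1-liver-transgenic samples against 5 wild-type samples, both of strain C57BL/6. NPC1L1 is a sterol uptake protein, and its expression in liver was used to stimulate chronically the loss of cholesterol through the intestinal wall. The ASO model set 4 samples of livers treated with an ACAT2 antisense oligonucleotide (ASO), directed at a cholesterol-esterifying enzyme, against 4 samples treated with a non-targeting ASO, both of strain C57BL/6N, and was intended as acute stimulation of the same route. The labels give neither the promoter or species of the transgene nor the dose and duration of the ASO, and the level of the targeted transcript was not analysed here. The replicate numbers are not said to stand for separate animals, so p-values cover only how these samples varied, which may be technical. All values are log2 intensities summarised by RMA per probe set, and each gene stands for its probe set of highest mean over all arrays.

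Complex I takes electrons from NADH and complex II from succinate, and both pass them to ubiquinone. Complex III hands them on to cytochrome c, complex IV reduces oxygen with them, and complex V uses the proton gradient built by complexes I, III and IV to make ATP. Liver draws on this system to oxidise fatty acids and to supply the ATP for gluconeogenesis, urea synthesis and sterol synthesis. Most subunits are encoded in the nucleus, and several catalytic ones in mitochondrial DNA, which the members do not include. The transcription factors NRF1, GABP (an ETS family factor) and YY1 are known to bind promoters of many nuclear genes of the system.

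Promoters of 300 bases, from 250 before to 50 after the annotated start, were matched for 70 of the 87 members and came from RefSeq (build GRCm38.p6). The NRF1 motif GCGCATGCG, searched on both strands like the others, was found in 10 of the 70 (14.3%), against 1.81% of 27025 genes with a promoter. The ETS motif CCGGAAG was found in 16 (22.9%), against 9.12% of all, and the YY1 motif AAGATGGCG in 7 (10%), against 1.49%. The letters TATAAA were found in 8 members (11.4%), against 14.2% of all promoters. Of the 7 YY1 matches, 6 lay in complex I promoters. Below are the promoters of Uqcr10, which gave the single called value among the members, and of Uqcr11, Atp5l and Ndufs6, named members in which these motifs occur, each 5′ to 3′ on the gene's own strand with matches in capitals. Uqcr10 (chr11:4704295-4704594, minus strand) holds none of these letters in this window. Uqcr11 (chr10:80406772-80407071, minus strand) shows an ETS and then an NRF1 match, Atp5l (chr9:44920693-44920992, minus strand) an NRF1 match, an ETS match, TATAAA on the opposite strand and a further ETS match, and Ndufs6 (chr13:73328433-73328732, minus strand) a YY1 match. A match describes the letters and does not show a bound site.
Uqcr10: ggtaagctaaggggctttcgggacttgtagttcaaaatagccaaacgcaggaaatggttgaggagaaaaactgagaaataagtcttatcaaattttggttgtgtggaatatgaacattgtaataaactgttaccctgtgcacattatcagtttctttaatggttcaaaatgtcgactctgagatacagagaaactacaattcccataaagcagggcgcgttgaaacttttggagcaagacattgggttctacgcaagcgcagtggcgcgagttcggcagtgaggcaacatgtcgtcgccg
Uqcr11: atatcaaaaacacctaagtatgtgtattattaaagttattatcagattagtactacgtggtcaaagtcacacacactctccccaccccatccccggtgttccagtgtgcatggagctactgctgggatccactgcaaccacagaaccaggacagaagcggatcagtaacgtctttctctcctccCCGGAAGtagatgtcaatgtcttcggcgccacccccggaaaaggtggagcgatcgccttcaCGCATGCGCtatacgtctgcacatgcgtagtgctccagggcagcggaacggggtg
Atp5l: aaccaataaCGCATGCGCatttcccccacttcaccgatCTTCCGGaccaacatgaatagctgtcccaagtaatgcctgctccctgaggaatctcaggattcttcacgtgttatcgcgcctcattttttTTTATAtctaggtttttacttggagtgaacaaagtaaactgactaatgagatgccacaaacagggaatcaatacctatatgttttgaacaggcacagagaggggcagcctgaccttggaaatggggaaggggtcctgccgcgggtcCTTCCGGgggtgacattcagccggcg
Ndufs6: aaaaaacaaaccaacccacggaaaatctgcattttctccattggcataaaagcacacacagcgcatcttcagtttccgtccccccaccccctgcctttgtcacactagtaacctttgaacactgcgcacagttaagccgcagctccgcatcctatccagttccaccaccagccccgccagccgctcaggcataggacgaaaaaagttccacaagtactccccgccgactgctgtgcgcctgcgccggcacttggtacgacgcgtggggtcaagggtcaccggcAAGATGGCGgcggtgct

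Some arrays stood apart from their group. The median absolute distance of an array's genes from the median of the other arrays of its group was between 0.0864 and 0.131 on the log2 scale, and was highest on wild type 2 (0.131), control ASO 4 (0.128) and ACAT2 ASO 1 (0.121). Array medians differed between the models (4.61 to 4.65 on the transgenic and wild-type arrays, 4.38 to 4.40 on the others). No level was set against one of the other model, though the limit of the lowest 40% of genes was taken over all arrays. The summed level of 6 hepatocyte markers, which include albumin, lay between 75.3 and 77.6 in transgenic, 75.7 and 77.5 in wild-type, 76.6 and 77.8 in ACAT2 ASO and 77.2 and 77.6 in control ASO liver. In whole tissue, fewer cells of a type and less RNA per cell cannot be told apart. Among the members, the median SD within a group was 0.0795, against 0.111 over all genes and 0.129 over genes above the lowest 40% by mean. This is a spread per gene, which does not show how far the members moved together on an array. The genes compared were not matched for level. Cox6a1 had the lowest SD (0.034) and Cox7a1 the highest (0.239).

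In NPC1L1-liver-transgenic liver no member of any complex passed limma at a Benjamini-Hochberg adjusted p under 0.05 over all genes, against 0.228% of all genes. The member changes ran from -0.30 for Cox7a1 to 0.22 for Ndufaf2 on the log2 scale, and their median was 0.036, against 0.0058 over all genes. Values above 0 were found for 63 of the 87 members (72.4%), against 52.6% of all genes. At an unadjusted p under 0.05 there were 11 members, 9 higher and 2 lower in transgenic liver, which is 12.6% against 10.9% of all genes. The smallest adjusted p was 0.251, for Sdhd. The 95% interval of the change lay within 0.263 on the log2 scale, or 1.2-fold, in either direction for 79 members and within 0.5 for 86, the exception being Cox7a1.

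After ACAT2 ASO, too, no member passed the adjusted threshold, against 0.597% of all genes, and the smallest adjusted p was 0.0659, for Uqcr10. The changes ran from -0.29 for Cox7a1 to 0.16 for Cox8c, with a median of -0.046, against -0.00056 over all genes. Values below 0 were found for 62 members (71.3%), against 50.3% of all genes. At an unadjusted p under 0.05 there were 19 members, 2 higher and 17 lower after ACAT2 ASO, which is 21.8% against 13.3% of all genes. Their intervals lay within 1.2-fold for 68 members and within 0.5 on the log2 scale for 86, again all but Cox7a1. Leaving out ACAT2 ASO 1 gave a median of -0.011, with 51 members below 0 and 9 at an unadjusted p under 0.05. Leaving out control ASO 1 gave -0.026, with 58 below 0 and 5 at that p. With any other array left out, 13 to 21 members had such a p, so the number depended on these arrays. In the transgenic model the median without wild type 2 was 0.014, with 49 members above 0, and without transgenic 2 and transgenic 5 it was 0.022 and 0.054.

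**Figure D1:**
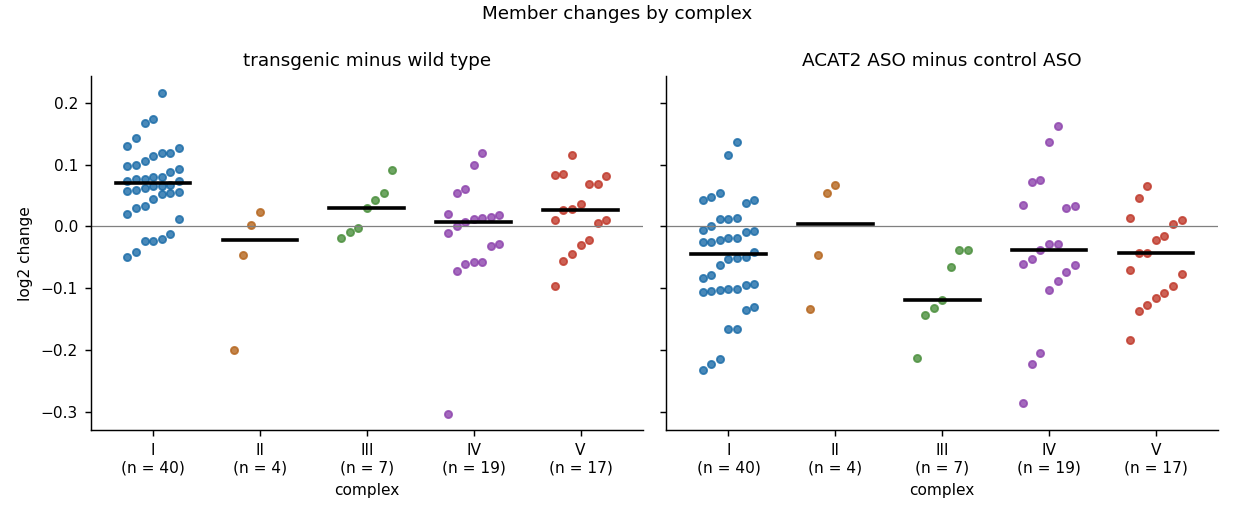
Log2 change of each of the 87 members (points) by complex, transgenic minus wild type on the left and ACAT2 ASO minus control ASO on the right, with the complex median as a bar. Most complex I points lie above 0 in the transgenic model (34 of 40), and all 7 complex III points lie below 0 in the ASO model.

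Groups that do not overlap were a second, coarser reading. In the transgenic model 1 member, Uqcr10, was higher on every transgenic array than on any wild-type array (1.15% of members, against 1.42% of all genes), and none was lower on every array, against 0.801% of all genes. In the ASO model 1 member, Cox5a, was higher on every ACAT2 ASO array (1.15%, against 4.39% of all genes). Another 11 members (12.6%, against 4.67% of all genes) were lower on every ACAT2 ASO array than on any control ASO array. These were Uqcr10, Sdhb, Atp5l, Atp5o, Cox6b2, Cox8b and Ndufs5-ps, together with Ndufs4, Ndufs7, Ndufa4l2 and Atp5h, which were singled out only by this count, after their values were seen. Among the 11, Ndufa4l2, Cox6b2 and Cox8b had low levels, with group means between 4.40 and 5.20 in the ASO model.

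Complex I, the entry point for NADH, had the highest complex median in transgenic liver, 0.07, with 34 of 40 members above 0. Its mean level was 10.28 ± 0.0563 in transgenic liver, against 10.21 ± 0.0764 in wild-type liver (SD, n = 5 each). After ACAT2 ASO its median was -0.045, with 29 of 40 below 0 and a mean level of 10.01 ± 0.0766, against 10.06 ± 0.05 in control ASO liver (SD, n = 4 each). Without wild type 2 the transgenic median was 0.038. The ASO median was -0.0048 without ACAT2 ASO 1, -0.019 without control ASO 1 and -0.074 without ACAT2 ASO 2, and -0.025 with the mean of each gene's probe sets. By role, the 26 supernumerary subunits, which surround the catalytic core, gave 21 values above 0 in transgenic liver and 23 below 0 after ACAT2 ASO. The 6 core subunits, which carry the redox centres, gave 5 above 0 in transgenic liver and 3 below 0 after ACAT2 ASO. The 7 assembly factors were all above 0 in transgenic liver (median 0.10), and 5 of 7 were above 0 after ACAT2 ASO (median 0.012), where supernumerary subunits had a median of -0.057. No test was made of these differences between roles.

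Ndufaf2, an assembly factor that acts late in building complex I, had the largest rise in transgenic liver among the chosen probe sets of the members. It read 7.37, 7.25, 7.36, 7.52 and 7.50 on the transgenic arrays, against 7.21, 7.02, 7.02, 7.33 and 7.33 on the wild-type arrays, a change of 0.22 ± 0.08 (SE, limma adjusted p = 0.322). Ndufaf2 read 6.90, 6.73, 6.79 and 6.68 after ACAT2 ASO, against 7.10, 7.10, 6.99 and 6.78 after control ASO, a change of -0.22 ± 0.09 (SE, limma adjusted p = 0.305). The groups overlapped in both models, through 2 high wild-type arrays in the transgenic model and through control ASO 4 in the ASO model. The difference between the effects of the models, tested in the same fit, was 0.43 ± 0.12 for Ndufaf2 (SE, limma adjusted p = 0.0923).

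Ndufs6, a zinc-binding subunit at the NADH-oxidising end, read 10.97, 11.04, 10.97, 10.98 and 10.86 in transgenic liver, against 10.92, 10.69, 10.74, 10.91 and 10.86 in wild-type liver. The change was 0.14 ± 0.053 (SE, limma adjusted p = 0.319), with transgenic 5 among the wild-type values. After ACAT2 ASO it averaged 10.71 ± 0.0612, against 10.81 ± 0.0731 after control ASO (SD, n = 4 each). Ndufa5, a subunit of the matrix arm, had the largest fall in complex I after ACAT2 ASO. It read 9.56, 9.84, 9.89 and 9.97, against 10.20, 10.01, 10.05 and 9.92 after control ASO. That change was -0.23 ± 0.089 (SE, limma adjusted p = 0.252), and ACAT2 ASO 1 was far below the rest of its group. In transgenic liver Ndufa5 averaged 10.26 ± 0.0859, against 10.24 ± 0.133 in wild-type liver (SD, n = 5 each).

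The pseudogene Ndufs5-ps read 10.33, 10.46, 10.33 and 10.38 after ACAT2 ASO, against 10.69, 10.53, 10.48 and 10.48 after control ASO. The groups did not overlap, but the gap between the nearest arrays was small beside the change of -0.17 ± 0.061 (SE, limma adjusted p = 0.237). In transgenic liver it changed by 0.12 ± 0.055 (SE, limma adjusted p = 0.446). Ndufs7, a core subunit with an iron-sulphur cluster near the ubiquinone site, read 9.59, 9.94, 9.99 and 10.03 after ACAT2 ASO, against 10.21, 10.07, 10.14 and 10.03 after control ASO (-0.22 ± 0.1 SE, limma adjusted p = 0.363). Its highest ACAT2 ASO array and lowest control ASO array agree to 2 decimals. Ndufs4, an accessory subunit whose loss causes Leigh-like disease in mice, averaged 9.30 ± 0.0324 after ACAT2 ASO, against 9.40 ± 0.0506 after control ASO (SD, n = 4 each). Its other probe sets, of lower mean (5.71 and 3.54), went the other way, by 0.28 and 0.075 (limma unadjusted p = 0.0291 and 0.11).

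Complex II, succinate dehydrogenase, also serves the tricarboxylic acid cycle, and its 4 genes did not share a direction in either model. Sdhd, a membrane anchor subunit, had the smallest p in the transgenic model among the chosen probe sets of the members. It read 9.46, 9.39, 9.19, 9.41 and 9.33 in transgenic liver, against 9.62, 9.46, 9.58, 9.70 and 9.41 in wild-type liver, a change of -0.20 ± 0.065 (SE, limma adjusted p = 0.251). The groups overlapped through wild type 5, which lay inside the transgenic range. After ACAT2 ASO Sdhd averaged 9.19 ± 0.0818, against 9.12 ± 0.0999 after control ASO (SD, n = 4 each).

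Sdhb, the iron-sulphur subunit, read 11.09, 11.33, 11.31 and 11.31 after ACAT2 ASO, against 11.48, 11.40, 11.34 and 11.36 after control ASO, with no overlap. The change was -0.13 ± 0.065 (SE, limma adjusted p = 0.387), and in transgenic liver it was 0.022 ± 0.058 (SE, limma adjusted p = 0.938). Sdha, the flavoprotein that oxidises succinate, averaged 11.22 ± 0.0525 on transgenic arrays and 11.22 ± 0.11 on wild-type arrays (SD, n = 5 each), and its interval ran from -0.12 to 0.12. It averaged 11.07 ± 0.0772 after ACAT2 ASO, against 11.11 ± 0.0903 with the control ASO (SD, n = 4 each). Sdhc, the other membrane anchor, changed by -0.046 ± 0.065 in transgenic liver (SE, limma adjusted p = 0.87) and by 0.053 ± 0.073 after ACAT2 ASO (SE, limma adjusted p = 0.831).

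Complex III held the single member called in any test. All 7 of its members lay below 0 after ACAT2 ASO, with a median of -0.12, and 4 of 7 lay above 0 in transgenic liver, with a median of 0.03. Its mean level was 10.83 ± 0.0899 after ACAT2 ASO, against 10.93 ± 0.0763 after control ASO (SD, n = 4 each), and 11.10 ± 0.0455 in transgenic liver, against 11.08 ± 0.0782 in wild-type liver (SD, n = 5 each). The median after ACAT2 ASO was -0.062 without ACAT2 ASO 1 and -0.076 without control ASO 1, and that in transgenic liver changed sign under 3 of 27 alternative settings, among them the fit without wild type 2 (-0.023).

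Uqcr10, one of the smallest subunits of the complex, read 10.88, 10.87, 10.89, 10.86 and 10.83 in transgenic liver, against 10.82, 10.65, 10.77, 10.81 and 10.81 in wild-type liver. The transgenic arrays all lay above the wild-type arrays, by a change of 0.092 ± 0.046 (SE, limma adjusted p = 0.49). Uqcr10 read 10.25, 10.46, 10.39 and 10.40 after ACAT2 ASO, against 10.67, 10.52, 10.57 and 10.60 after control ASO. Here all ACAT2 ASO arrays lay below the control ASO arrays, by a change of -0.21 ± 0.051 (SE, limma adjusted p = 0.0659). The difference between the effects was 0.31 ± 0.069 (SE, limma adjusted p = 0.044), the only 1 of the 87 members called in this test, against 1.07% of all genes. This call was lost on leaving out any of 16 of the 18 arrays, with adjusted p up to 0.0939 (without control ASO 1), and was kept without wild type 5 (0.0456) and without ACAT2 ASO 2 (0.0286), while the difference itself stayed between 0.26 and 0.34. The remaining probe sets of Uqcr10 gave differences of 0.37 and 0.34 (limma adjusted p = 0.124 and 0.206). These came from a fit of every probe set, adjusted over all probe sets and not over genes. They divided this difference otherwise between the models. In transgenic liver they gave 0.28 and 0.36 (limma unadjusted p = 0.0017 and 0.00043). After ACAT2 ASO they gave -0.095 and 0.024 (limma unadjusted p = 0.272 and 0.799). The probe sets of Uqcr10 thus place the difference in different models. Both transgenic rises were larger, with a smaller unadjusted p, than that of any member's chosen probe set.

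Uqcrq, a small subunit named for binding ubiquinone, read 11.37, 11.47, 11.36 and 11.37 after ACAT2 ASO, against 11.64, 11.56, 11.48 and 11.47 after control ASO (-0.14 ± 0.052 SE, limma adjusted p = 0.22). Its groups met at ACAT2 ASO 2, which lay apart from the rest of its group. In transgenic liver Uqcrq changed by 0.043 ± 0.046 (SE, limma adjusted p = 0.809). Uqcr11, a small subunit, read 10.80, 11.07, 10.88 and 10.94 after ACAT2 ASO, against 11.17, 11.06, 10.96 and 11.03 after control ASO (-0.13 ± 0.059 SE, limma adjusted p = 0.338). In transgenic liver it averaged 11.28 ± 0.0388, against 11.23 ± 0.0668 in wild-type liver (SD, n = 5 each). The 2 core proteins Uqcrc1 and Uqcrc2 and the Rieske iron-sulphur protein Uqcrfs1 had changes between -0.019 and 0.03 in transgenic liver, and between -0.065 and -0.039 after ACAT2 ASO. These 3 genes were named for their roles after their values were seen.

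**Figure D2:**
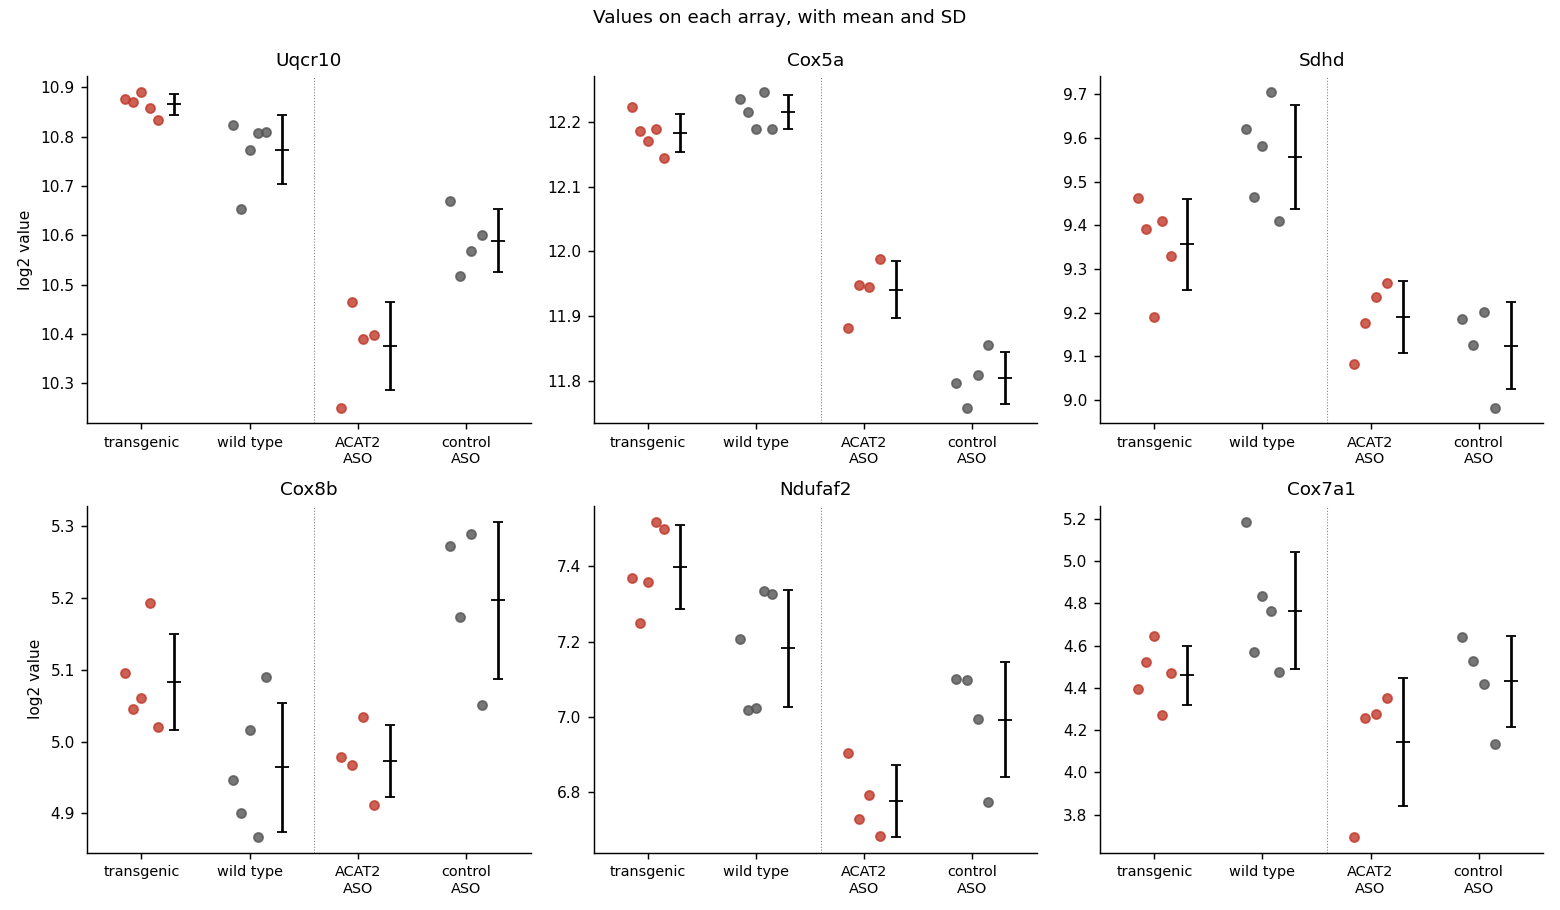
Log2 value on each array (points) with the group mean and SD, for 6 named members, the transgenic model left of the dotted line and the ASO model right of it, the transgenic and ACAT2 ASO groups in red and their controls in grey. The groups of Uqcr10 are apart in both models and those of Cox5a and Cox8b in the ASO model, while those of Sdhd, Ndufaf2 and Cox7a1 overlap in both. Each panel has its own axis, which does not start at 0.

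Complex IV, cytochrome c oxidase, includes subunits that come in pairs or families of tissue isoforms. Its median was 0.0072 in transgenic liver, with 11 of 19 members above 0, and -0.038 after ACAT2 ASO, with 12 of 19 below 0. The transgenic median changed sign under 5 of 27 alternative settings, and the ASO median was -0.017 without ACAT2 ASO 1 and -0.018 without control ASO 3. The mean level was 8.82 ± 0.0241 in transgenic liver, against 8.83 ± 0.0377 in wild-type liver (SD, n = 5 each), and 8.61 ± 0.049 after ACAT2 ASO against 8.65 ± 0.0363 after control ASO (SD, n = 4 each). Cox4i2, Cox7a1 and Cox7b2 were the only 3 of the 87 members among the 40% of genes with the lowest mean (below 4.74).

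The common and liver-type isoforms had changes of at most 0.10 in either direction in both models. Cox4i1, the common subunit 4 isoform, changed by 0.015 ± 0.042 in transgenic and by -0.029 ± 0.047 in ACAT2 ASO liver (SE, limma adjusted p = 0.944 and 0.862). Cox6a1, the liver-type partner of Cox6a2, changed by 0.02 ± 0.034 and 0.034 ± 0.038 in the transgenic and ASO models (SE, limma adjusted p = 0.899 and 0.768). Cox7a2, the liver-type partner of Cox7a1, changed by 0.018 ± 0.054 in transgenic and by -0.089 ± 0.06 in ACAT2 ASO liver (SE, limma adjusted p = 0.949 and 0.571). For Cox4i1 the intervals ran from -0.074 to 0.10 in the transgenic and from -0.13 to 0.07 in the ASO model. Cox6b1, which caps the complex on the cytochrome c side, changed by 0.054 ± 0.053 in transgenic and by -0.063 ± 0.059 in ACAT2 ASO liver (SE, limma adjusted p = 0.784 and 0.714). Cox8a, the common subunit 8 isoform, changed by 0.10 ± 0.054 in transgenic and by 0.03 ± 0.06 in ACAT2 ASO liver (SE, limma adjusted p = 0.535 and 0.889).

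The partner isoforms are known mainly from muscle, lung or testis. Cox8b, a muscle and brown fat isoform, read 4.98, 4.97, 5.03 and 4.91 after ACAT2 ASO, against 5.27, 5.17, 5.29 and 5.05 after control ASO, without overlap (-0.22 ± 0.061 SE, limma adjusted p = 0.101). It read 5.10, 5.04, 5.06, 5.19 and 5.02 in transgenic liver, against 4.95, 4.90, 5.02, 4.87 and 5.09 in wild-type liver, with overlap (0.12 ± 0.054 SE, limma adjusted p = 0.44). The difference between the effects was 0.34 ± 0.082 (SE, limma adjusted p = 0.0531), and it passed the threshold without wild type 5 (0.0346) and without control ASO 4 (0.0316). Cox7a1, the heart and muscle isoform, read 4.39, 4.52, 4.65, 4.27 and 4.47 in transgenic liver, against 5.19, 4.57, 4.83, 4.76 and 4.47 in wild-type liver (-0.30 ± 0.14 SE, limma adjusted p = 0.438). Cox7a1 read 3.69, 4.26, 4.27 and 4.35 after ACAT2 ASO, against 4.64, 4.53, 4.42 and 4.14 after control ASO (-0.29 ± 0.16 SE, limma adjusted p = 0.451). Its groups overlapped in both models, with wild type 1 high and ACAT2 ASO 1 low.

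Cox8c, a testis isoform, had the largest rise after ACAT2 ASO among the chosen probe sets of the members. It read 6.78, 6.86, 6.86 and 6.69, against 6.61, 6.59, 6.77 and 6.57 after control ASO (0.16 ± 0.069 SE, limma adjusted p = 0.311). Control ASO 3 lay inside the ACAT2 ASO range. Cox6b2, another testis isoform, read 5.10, 4.89, 4.90 and 4.92 after ACAT2 ASO, against 5.24, 5.10, 5.15 and 5.15 after control ASO (-0.21 ± 0.093 SE, limma adjusted p = 0.344). Its groups touched without overlapping. Cox4i2, a lung isoform, averaged 4.16 ± 0.121 in transgenic liver, against 4.21 ± 0.137 in wild-type liver (SD, n = 5 each), and Cox6a2, a heart and muscle isoform, averaged 6.07 ± 0.116 in transgenic liver, against 6.01 ± 0.112 in wild-type liver (SD, n = 5 each). After ACAT2 ASO Cox4i2 changed by 0.075 ± 0.078 and Cox6a2 by -0.029 ± 0.067 (SE, limma adjusted p = 0.754 and 0.904). Ndufa4l2, a hypoxia-inducible relative of Ndufa4, averaged 4.40 ± 0.0417 after ACAT2 ASO, against 4.47 ± 0.0217 after control ASO (SD, n = 4 each). These means lie below 4.74, the limit of the lowest 40% of genes, but that limit pools the arrays of both models. Array medians in the ASO model were 4.38 to 4.40, and by its mean over all arrays Ndufa4l2 was not among the lowest 40%.

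Cox5a is a matrix-side subunit found in all tissues, and it had values above 0 after ACAT2 ASO and below 0 in transgenic liver. It read 11.88, 11.95, 11.95 and 11.99 after ACAT2 ASO, against 11.80, 11.76, 11.81 and 11.85 after control ASO, without overlap (0.14 ± 0.038 SE, limma adjusted p = 0.109). The other 2 Cox5a probe sets gave 0.074 and 0.087 after ACAT2 ASO. In transgenic liver Cox5a read 12.22, 12.19, 12.17, 12.19 and 12.14, against 12.24, 12.22, 12.19, 12.25 and 12.19 in wild-type liver, with overlap (-0.032 ± 0.034 SE, limma adjusted p = 0.807). Cox7a2l, which helps join complexes III and IV into supercomplexes, changed by -0.072 ± 0.06 in transgenic and by -0.053 ± 0.067 in ACAT2 ASO liver (SE, limma adjusted p = 0.733 and 0.81).

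Complex V, the ATP synthase, had a median of 0.026 in transgenic liver, with 12 of 17 members above 0, and of -0.043 after ACAT2 ASO, with 12 of 17 below 0. Its mean level was 11.38 ± 0.034 in transgenic liver, against 11.36 ± 0.0553 in wild-type liver (SD, n = 5 each), and 11.11 ± 0.0702 after ACAT2 ASO against 11.16 ± 0.0439 after control ASO (SD, n = 4 each). Without ACAT2 ASO 1 the ASO median was -0.016, and the transgenic median was 0.014 without wild type 2 and 0.013 without transgenic 2. With the mean of each gene's probe sets the medians were 0.0084 in transgenic liver and -0.078 after ACAT2 ASO. Atp5o, the peripheral stalk subunit that confers oligomycin sensitivity, read 11.08, 11.10, 11.11, 11.08 and 10.99 in transgenic liver, against 11.05, 10.84, 10.87, 10.95 and 11.07 in wild-type liver (0.12 ± 0.05 SE, limma adjusted p = 0.4). Transgenic 5 was the array inside the wild-type range. Atp5o read 10.70, 10.85, 10.81 and 10.85 after ACAT2 ASO, against 11.00, 10.91, 10.95 and 10.89 after control ASO, without overlap (-0.14 ± 0.055 SE, limma adjusted p = 0.29). Its other probe set gave 0.079 in transgenic liver and -0.23 after ACAT2 ASO.

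Atp5l, a membrane subunit that joins synthase dimers and whose promoter carries NRF1 and ETS matches above, read 11.27, 11.38, 11.27 and 11.33 after ACAT2 ASO, against 11.48, 11.41, 11.38 and 11.44 after control ASO (-0.12 ± 0.04 SE, limma adjusted p = 0.193). The groups touched without overlapping. In transgenic liver it changed by 0.036 ± 0.036 (SE, limma adjusted p = 0.795). Atp5mpl, a small proteolipid of the complex, averaged 10.42 ± 0.048 in transgenic liver, against 10.34 ± 0.0543 in wild-type liver (SD, n = 5 each), and 10.00 ± 0.0509 after ACAT2 ASO against 9.99 ± 0.0531 after control ASO (SD, n = 4 each). Atp5h, a peripheral stalk subunit, averaged 11.86 ± 0.0538 after ACAT2 ASO, against 11.93 ± 0.0323 after control ASO (SD, n = 4 each).

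Atp5g1, Atp5g2 and Atp5g3 encode the same mature subunit c, which forms the rotating ring. Atp5g1 read 10.59, 10.85, 10.78 and 10.88 after ACAT2 ASO, against 11.10, 10.86, 10.89 and 11.00 after control ASO (-0.18 ± 0.078 SE, limma adjusted p = 0.307). Atp5g2 changed by -0.021 ± 0.05 and Atp5g3 by 0.0039 ± 0.05 in the same comparison (SE, limma adjusted p = 0.906 and 0.986). In transgenic liver Atp5g1 changed by 0.068 ± 0.07, Atp5g2 by -0.056 ± 0.044 and Atp5g3 by -0.045 ± 0.045 (SE, limma adjusted p between 0.71 and 0.801). The 3 genes thus did not share a sign in either model, and none of them passed the test.

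**Figure D3:**
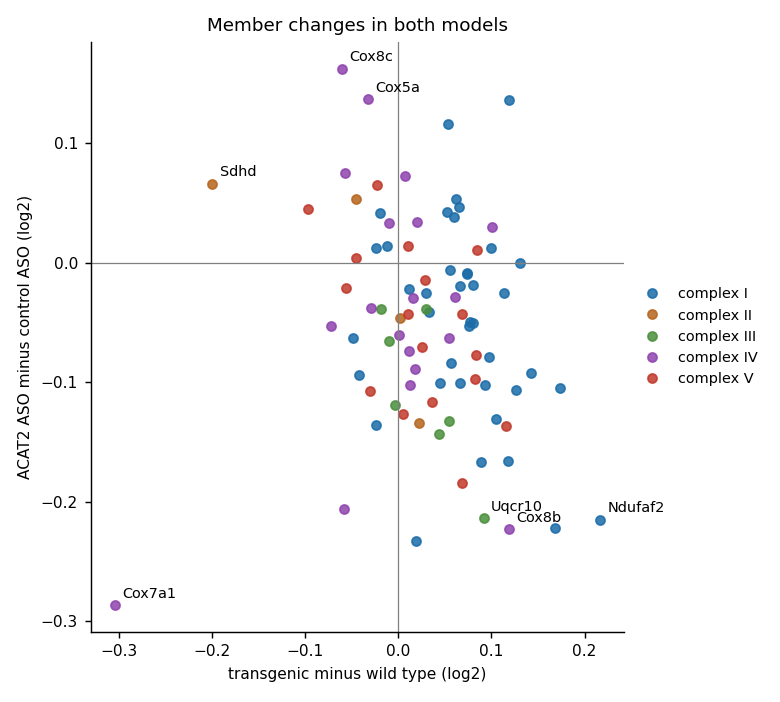
Log2 change of the 87 members, transgenic minus wild type on the horizontal axis and ACAT2 ASO minus control ASO on the vertical axis, coloured by complex. Of the members, 50 lie to the lower right of the 0 lines, with Ndufaf2, Ndufs7 (not labelled), Cox8b and Uqcr10 at the far end.

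Set side by side, 50 of the 87 members (57.5%) had values above 0 in transgenic liver and below 0 after ACAT2 ASO, against 29.2% of all genes. The reverse held for 12 members, 13 were above 0 in both models and 12 below 0 in both. Complex I gave 26 of 40 with the first pattern, complex II 2 of 4, complex III 4 of 7, complex IV 8 of 19 and complex V 10 of 17. The first pattern partly restates the sign shares, 72.4% of members above 0 in transgenic liver and 71.3% below 0 after ACAT2 ASO. Single arrays moved these shares, to 49 members above 0 without wild type 2 and 51 below 0 without ACAT2 ASO 1. The models share no arrays. Pearson's r between the 2 changes was -0.17 across the 87 members, which share their arrays, and -0.083 across all genes, so the sizes of the changes were only weakly related. The 61 other probe sets of 41 members had the sign of the chosen probe set in 41 cases in transgenic liver and in 42 after ACAT2 ASO.

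Much of the common movement lay in single arrays. On ACAT2 ASO 1, 79 of 87 members read below the control ASO mean, by 0.15 on average, against 50.7% of all genes below it. The members on ACAT2 ASO 2, 3 and 4 averaged -0.00059, -0.04 and -0.011 from that mean. On wild type 2, 81 members read below the mean of the wild-type arrays, by 0.10 on average, against 56.4% of all genes below it. On wild type 1 this held for 10 members, against 51.3% of all genes. The transgenic arrays averaged 0.039, 0.08, 0.041, 0.041 and -0.035 from the wild-type mean, transgenic 5 being the low one. Control ASO 1 was the high array of its group, at 0.067. With wild type 2, control ASO 4 and ACAT2 ASO 1 left out together, the member medians were 0.014 in transgenic liver, with 49 above 0, and -0.031 after ACAT2 ASO, with 58 below 0.

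**Figure D4:**
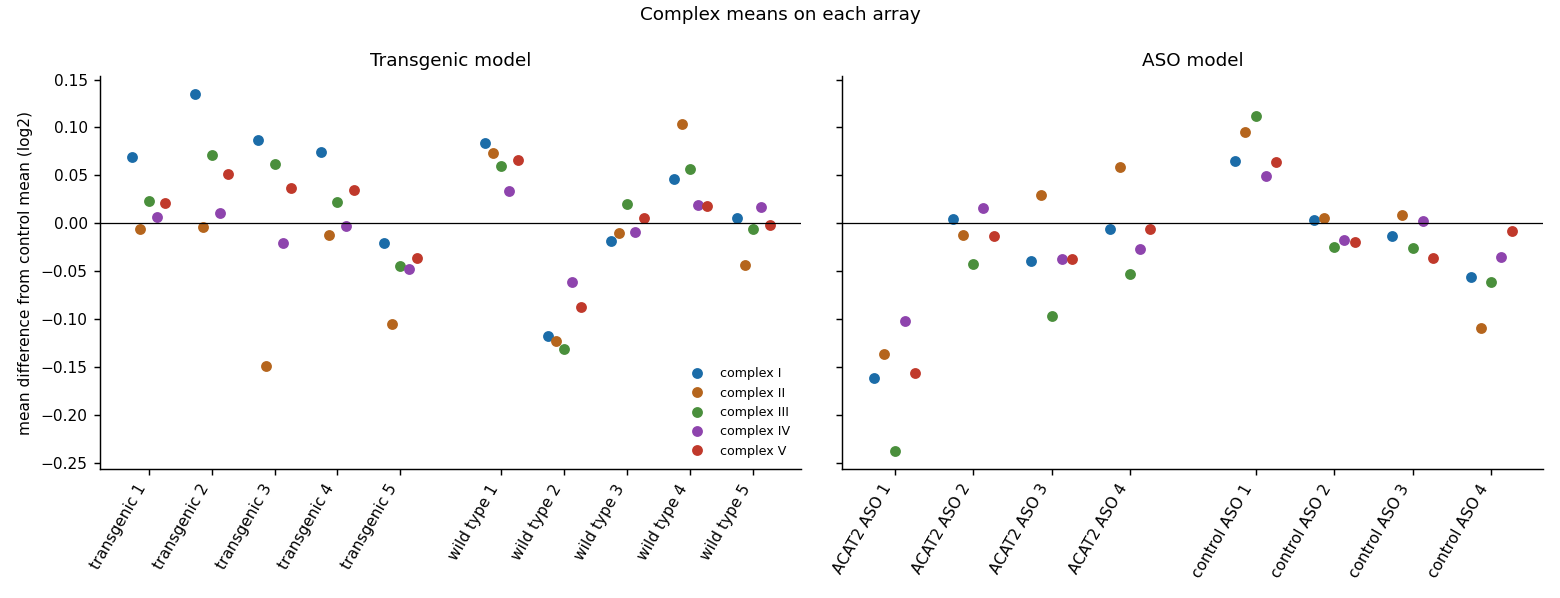
Mean difference of each complex's members from the control mean of the model (log2), for each array, with the transgenic and ACAT2 ASO arrays left of their controls. ACAT2 ASO 1, transgenic 5, wild type 2 and control ASO 4 lie below 0 for all 5 complexes, and wild type 1, wild type 4 and control ASO 1 above 0 for all 5.

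**Figure D5:**
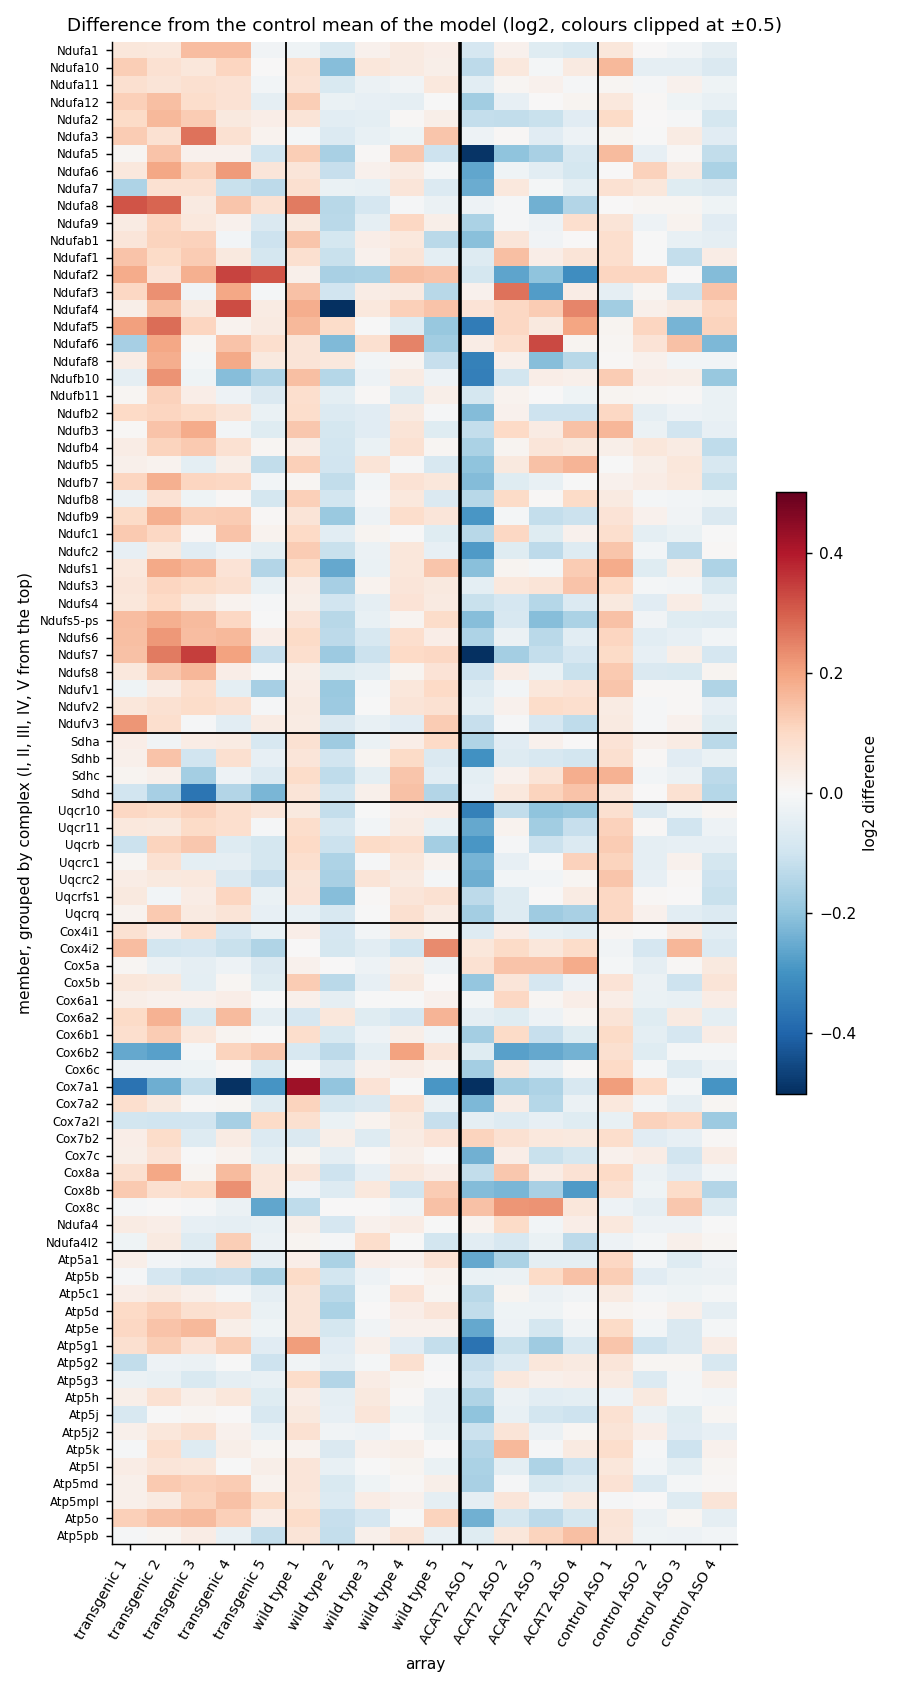
Difference of each of the 87 members (rows, by complex) from the control mean of its model on each of the 18 arrays (columns), on a log2 colour scale clipped at 0.5 in either direction. The columns of ACAT2 ASO 1 and wild type 2 are low across complexes, with 79 and 81 of 87 members below the control mean, against 50.7% and 56.4% of all genes.

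The highest levels of some markers of other liver cells fell on the low arrays, a reading added after the values were seen. In all 4 groups the array with the highest mean level of 6 Kupffer cell and macrophage markers (Adgre1, Clec4f, Cd68, Csf1r, Marco and Vsig4) was also the array with the lowest mean of the members. These were transgenic 5 (marker mean 8.70), wild type 2 (9.33), ACAT2 ASO 1 (9.0) and control ASO 4 (8.60). The summed level of these 6 markers ran from 46.9 to 52.2 in transgenic, 45.9 to 56.0 in wild-type, 42.9 to 54.0 in ACAT2 ASO and 42.9 to 51.6 in control ASO liver, and all 6 were measured, none at 0. The same held in all 4 groups for the 2 measured of 4 erythroid markers, Hba-a1 and Alas2, whose sum ran from 17.5 to 20.5 in transgenic, 18.4 to 19.6 in wild-type, 16.9 to 18.4 in ACAT2 ASO and 16.7 to 18.9 in control ASO liver. For the other 7 of 9 marker lists it held in 0 to 3 groups. The converse, the lowest marker level on the array with the highest member mean, held in 2 groups for macrophage and 1 for erythroid markers. Between groups, 6 of 6 macrophage markers were above 0 after ACAT2 ASO, with a median of 0.44. In transgenic liver 3 of 6 were above 0, and none was called in either model. The marker mean was 7.94 ± 0.776 after ACAT2 ASO, against 7.53 ± 0.715 after control ASO (SD, n = 4 each). Each of these groups held a high array, ACAT2 ASO 1 and control ASO 4. The marker mean was 7.94, 7.15 and 7.69 on ACAT2 ASO 2, 3 and 4. It was 7.19, 7.17 and 7.15 on control ASO 1, 2 and 3. The rise after ACAT2 ASO thus lay within the spread of the arrays, and its dependence on ACAT2 ASO 1 was not tested. The part of the macrophage and erythroid markers in the member values was not tested. The gap of the Actb control probes at the 3′ end over those at the 5′ end, a measure of RNA degradation, was 1.02 ± 0.175 in transgenic liver, against 0.906 ± 0.085 in wild-type liver (SD, n = 5 each), and 1.05 ± 0.107 after ACAT2 ASO against 1.05 ± 0.0484 after control ASO (SD, n = 4 each). It was lowest of its group on wild type 2 (0.829) and ACAT2 ASO 1 (0.921), but not on transgenic 5 (0.911) or control ASO 4 (1.04). The same gap for Gapdh was 0.187 on wild type 2 and 0.130 on ACAT2 ASO 1. Its lowest values in those groups were on wild type 1 (0.128) and ACAT2 ASO 3 (0.115).

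Genes around the complexes were read from lists chosen by function. Of 45 electron carriers and assembly factors of the chain, 40 were measured, 34 of them above 0 in transgenic liver, against 52.6% of all genes, with a median of 0.053. The groups overlapped in the mean of the list, which was lowest on wild type 2 (7.75). Wild type 1 (7.93) lay above every transgenic array (7.87 to 7.92). Coa3, an assembly factor of complex IV, was the only 1 of the 40 that passed the test. It rose to 9.80 ± 0.0622 in transgenic liver, against 9.54 ± 0.0564 in wild-type liver (SD, n = 5 each), a change of 0.25 ± 0.047 (SE, limma adjusted p = 0.0306). After ACAT2 ASO 24 of the 40 were below 0, against 50.3% of all genes, with a median of -0.05 and none called. Nubpl, which inserts iron-sulphur clusters into complex I, changed by -0.37 ± 0.087 there, and Pet100, a complex IV assembly factor, by -0.24 ± 0.059 (SE, limma adjusted p = 0.0635 and 0.0713).

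No gene of the other 4 mitochondrial lists was called in either model. The regulators of mitochondrial biogenesis, 21 of 23 measured, had medians of -0.035 in transgenic liver and -0.023 after ACAT2 ASO. At an unadjusted p under 0.05, 2 of them were higher and 1 lower after ACAT2 ASO. Esrra, a nuclear receptor that drives many oxidative genes, changed by -0.21 ± 0.083 and Mterf3, a mitochondrial factor of the transcription terminator family, by 0.15 ± 0.063 (SE, limma adjusted p = 0.258 and 0.305). The tricarboxylic acid cycle and pyruvate entry genes, 17 of 20 measured, had medians of -0.041 in transgenic liver and -0.089 after ACAT2 ASO. For coenzyme Q synthesis, 8 of 12 measured, the medians were 0.066 in transgenic liver and -0.088 after ACAT2 ASO, and for mitochondrial carriers and import, 16 of 19 measured, they were -0.018 in transgenic liver and 0.039 after ACAT2 ASO. The signs of these medians in transgenic liver thus differed between gene groups of the same organelle.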

How the data were processed

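Liver RNA of 18 samples was hybridised to Affymetrix GeneAtlas MG-430 PM arrays, after Trizol extraction and 3′-IVT labelling per the labels' protocols. The deposited log2 values are the authors' RMA summaries, according to the submitters' processing notes, and no software version or probe set definition is given in the sources used here. Each array held 45141 probe sets, of which 104 were controls, 28898 had 1 gene symbol, 551 several and 15588 none. Of the 28898, 28689 matched the mouse gene table (GRCm38.p6) by Entrez number and 0 symbols changed. Arrays with identical values were looked for, and 0 pairs were found. The 87 members held 148 probe sets, 46 members having 1, and genes of low value were kept. The members and lists were chosen with earlier results of these data known.

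Groups came from the sample titles. Differences were tested with limma 3.58.1 (R 4.3.3, lmFit and eBayes), in 1 fit of 18 arrays with a mean per group, for the effect of the transgene (over wild type), that of the ACAT2 ASO (over control ASO) and their difference. Tests were two-sided with Benjamini-Hochberg adjustment over 17097 genes and a threshold of 0.05. Precision is limited by the few arrays per group. Named members were those called, the 2 with the smallest p per complex and comparison, the largest rise and fall, the isoform families Cox4i, Cox6a, Cox6b, Cox7a, Cox8 and Atp5g, and Sdha to Sdhd. Of the other lists, any called gene was described. For the electron carriers and assembly factors and the biogenesis regulators, the 2 genes with the smallest p after ACAT2 ASO were added. Genes with the smallest p in other lists or comparisons, among them Cox19, Pdhb, Idh2 and Coq7, were not described. In simulated data with the real means and spreads, the procedure recovered 66 of 66 genes changed by 1, 33 of 67 changed by 0.3 and 4 of 67 changed by 0.15 in the transgenic comparison, with 8 calls among 16897 unchanged genes. In the ASO comparison it recovered 64 of 66, 22 of 67 and 4 of 67, with 5 such calls. Alternatives covered a filter of the lowest 40% of genes, centring, quantile normalization, the mean of or each of a gene's probe sets, own-array fits, trended robust variance, weights per array, a replicate block, an adjusted p under 0.01 and leaving out each array. Leaving out 3 arrays together was added after seeing the data. Figures were drawn with matplotlib 3.10.9.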

Additional observations from a re-analysis of the deposited data

Results flagged for a closer look

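The change of Uqcr10 differed between the models by 0.31 on the log2 scale, transgenic effect minus ASO effect, and passed the test of the difference itself in the fit over all arrays (limma adjusted p = 0.044). Single arrays lay far from the rest of their group in 7 of 144 cases, which covered the 4 groups for 30 named members, the means of the 5 complexes and the mean of all members. All 7 were named members. Chance gives about 5% of cases such an array. On ACAT2 ASO 1, Cox7a1 read 3.69, against 4.26 to 4.35 on the other ACAT2 ASO arrays, Sdhb read 11.09, against 11.31 to 11.33, and Cox6b2 read 5.10, against 4.89 to 4.92. Uqcrq read 11.47 on ACAT2 ASO 2, against 11.36 to 11.37. On transgenic 5, Cox8c read 6.66, against 6.89 to 6.92 on the other transgenic arrays, and Cox7a2l read 9.73, against 9.47 to 9.55. Cox4i2 read 4.37 on transgenic 1, against 4.06 to 4.13.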

How the results depend on the processing

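The medians of the members and of each complex moved by less than 1 SD between replicates in all 324 recalculations. This limit cannot show stability, since the SD of the mean over all members was 0.042 to 0.070 by group, against medians of 0.036 and -0.046. The sign of the median over all members did not change. That of complex II in the ASO model changed in 5 of 27 settings, and those of complexes III and IV in the transgenic model in 3 and 5. The medians were also unstable in size: without ACAT2 ASO 1 the ASO medians were -0.0048, -0.062, -0.017 and -0.016 for complexes I, III, IV and V. Of 2514 values of named members, 68 changed sign without being called, in 16 members, to values of at most 0.20 in size. The cause was not tested for any change below.

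In the transgenic comparison the members called were 0 under every alternative run. After ACAT2 ASO they were 0 to 1 with an array left out, 1 with centring (Uqcr10) and 3 with array weights (Uqcr10, Cox5a and Cox8b). For the difference of the effects they were 0 to 2 with an array left out, 2 with centring (Uqcr10 and Cox8b), 3 with array weights (also Ndufaf2), and 0 with averaged probe sets, an adjusted p under 0.01, or the 3 arrays that stand apart left out. Uqcr10 then gave 0.23 (limma adjusted p = 0.136), and with quantile normalization 0.28 (limma adjusted p = 0.0616), where Cox8b was the member called instead (0.36, limma adjusted p = 0.0499), as it was without control ASO 4.

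Genes called in all were 39, 102 and 183 for the transgenic, ASO and difference comparisons. They were 20 to 58, 42 to 203 and 69 to 262 with an array left out, 78, 219 and 350 with every probe set by itself, and 17, 26 and 28 at an adjusted p under 0.01. Fits of each comparison's own arrays gave 13 and 17. Array weights gave 465 and 369 for the ASO and difference comparisons, and leaving out the 3 arrays that stand apart gave 46 and 58. Deviations of same-numbered arrays correlated at -0.48 to 0.17 (transgenic) and -0.48 to 0.47 (ASO), and the numbers do not pair samples. With the replicate block, in limma fits of own arrays, 0 genes were called in each model, and at an unadjusted p under 0.05 there were 5 and 9 members in the transgenic and ASO models.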
